A study of Caenorhabditis elegans with 2 samples.

Results

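Long intergenic non-coding RNA (lincRNA) genes make long transcripts with no recognised protein-coding frame from the spaces between protein-coding genes. The 194 genes that the Ensembl annotation of the Caenorhabditis elegans genome (WBcel235, release 115) classes as lincRNA were taken, of 46890 annotated nuclear genes in all. The rule that takes them reads the annotation and no measured value. Binding of NHR-6, the worm member of the NR4A nuclear receptors, was read at them by ChIP-seq, in which DNA bound by a protein is pulled down with an antibody and sequenced, in whole L2 larvae, male and female pooled. The animals were of strain OP90, genotype unc-119(ed3) III; wgIs90, which carries an integrated insertion giving eGFP-tagged NHR-6, and 2 biological replicates made up the 1 group. No second condition is labelled and no control sample was analysed here, so no comparison between conditions was possible. In whole animals, binding in more cells and more binding per cell cannot be told apart.

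Most worm lincRNA genes have no assigned function. Nuclear receptors of the NR4A group bind DNA near an AAAGGTCA element, and ChIP-seq finds such places as peaks of sequenced fragments, each with a summit. Because worm genes lie close together, a summit near the start of a lincRNA gene can also lie at the start of a protein-coding neighbour. ChIP-seq carries no strand, so a summit cannot be given to either gene by the assay itself.

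Of the 194 lincRNA genes, 56 had 1 annotated exon and 6 had more than 1 annotated 5′ end. Their median length was 761 bp, and the longest had 6035 bp. Protein-coding genes overlapped 42 of them (21.6%). The window searched for summits at each annotated 5′ end took in 1000 bp before it and 200 bp after it. That window met the window of a protein-coding gene at 89 lincRNA genes (45.9%) and met none at 105 (54.1%).

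The authors' optimal set held the 1662 peaks kept by their limit on the irreproducible discovery rate. Not every peak of the set was matched in both replicates: 1640 had a replicate 1 summit within 100 bp and 1426 a replicate 2 summit. An NHR-6 summit of this set lay in the window of 18 of 194 lincRNA genes (9.28%, 95% exact interval 5.59 to 14.3%). The same rule called 4.01% of all nuclear genes and 5.94% of protein-coding genes. The interval at lincRNA genes holds the protein-coding share, and the difference was not tested. Among the 831 highest optimal peaks the shares were close, with 6 lincRNA genes (3.09%) against 3.43% of protein-coding genes. These 18 windows held 19 summits, 1.14% of the optimal set, and linc-84 had 2 of them. Protein-coding windows also held 13 of the 19 (68.4%, 95% exact interval 43.4 to 87.4%), which left 6 summits at 6 lincRNA genes (3.09%, 95% exact interval 1.14 to 6.61%) with no protein-coding start in reach. Over the whole optimal set, 928 of 1662 summits (55.8%) were in protein-coding windows, a share inside the lincRNA interval, and of the summits in windows of other non-coding genes 196 of 428 were (45.8%). The division rests on the window's length: with windows from 500 bp upstream, 9 of 13 lincRNA summits (69.2%) lay in no protein-coding window. Of all 24789 non-coding genes, 15363 of them piRNA genes, 1.59% had a summit outside protein-coding windows. A summit in no other gene's window was found at 4 lincRNA genes (2.06%, 95% exact interval 0.565 to 5.19%). For protein-coding genes that share was 2.39%, inside the lincRNA interval.

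**Figure D1:**
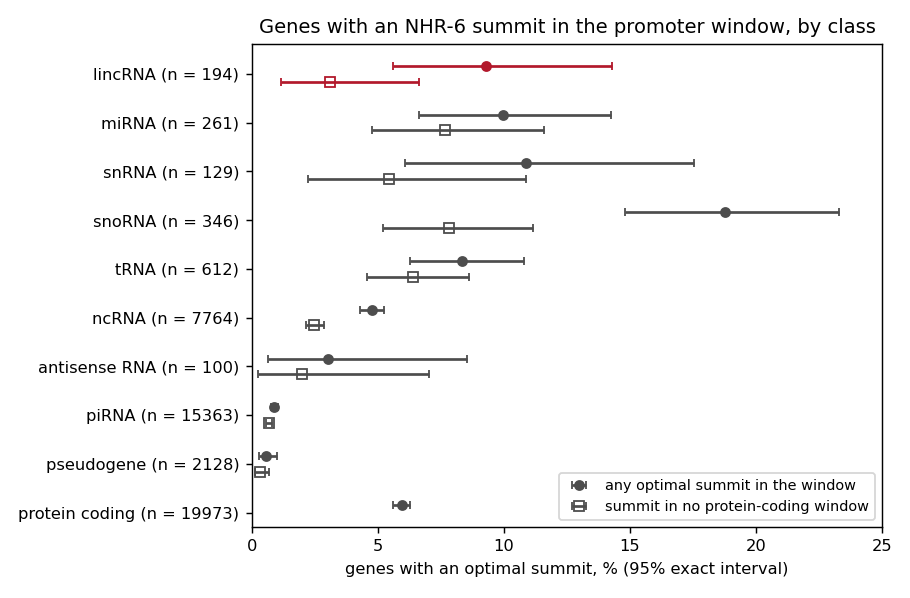
Share of genes with an optimal NHR-6 summit in the promoter window (x axis, %), by annotated class (y axis). Filled circles count any such summit, open squares those in no protein-coding window, and bars are 95% exact intervals that cover counting error. The lincRNA class had 9.28% and 3.09%, and protein-coding genes had 5.94%.

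Other classes of non-coding gene give the setting for these shares. MicroRNA genes had 9.96% with an optimal summit and 7.66% with one outside protein-coding windows. For snRNA genes the shares were 10.9% and 5.43%, for tRNA genes 8.33% and 6.37%, and for snoRNA genes 18.8% and 7.80%. The large mixed ncRNA class had 4.75% and 2.47%. Lower shares were those of antisense RNA genes, at 3% and 2%, piRNA genes, at 0.885% and 0.657%, and pseudogenes, at 0.564% and 0.329%. The lincRNA share was thus near those of miRNA, snRNA and tRNA genes when every summit was counted, and nearer to that of the ncRNA class for summits outside protein-coding windows. For the share of any summit, the lincRNA interval overlapped those of miRNA, snRNA and tRNA genes and also that of antisense RNA genes (0.623 to 8.52%). It lay above those of ncRNA genes (4.29 to 5.25%), piRNA genes (0.743 to 1.05%) and pseudogenes (0.292 to 0.983%), and below that of snoRNA genes (14.8 to 23.3%). For summits outside protein-coding windows it overlapped the intervals of miRNA, snRNA, tRNA, snoRNA, ncRNA and antisense RNA genes, and lay above those of piRNA genes (0.536 to 0.798%) and pseudogenes (0.132 to 0.677%). No difference between classes was tested.

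Summit sequences are shown for the 6 lincRNA genes whose summit lay in no protein-coding window. At all 6 the lincRNA start was nearer than any protein-coding start, which the window rule largely fixes in advance. Each sequence is the summit with 50 bp on either side, read from the RefSeq genome (WBcel235) on the strand of the lincRNA. The sequence at linc-78, the highest lincRNA peak, was added to them after its value had been seen. Capitals mark GAGAGAGA, the receptor core AGGTCA, and TGCGTC, each searched on both strands.
linc-90 (chrIII:352231-352331, plus strand): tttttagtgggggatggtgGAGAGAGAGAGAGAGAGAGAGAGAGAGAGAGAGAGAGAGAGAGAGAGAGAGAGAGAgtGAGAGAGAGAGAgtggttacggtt
linc-81 (chrV:19897658-19897758, minus strand): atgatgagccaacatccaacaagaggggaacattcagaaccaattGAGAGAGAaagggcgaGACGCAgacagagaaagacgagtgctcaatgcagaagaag
linc-50 (chrIV:5582495-5582595, minus strand): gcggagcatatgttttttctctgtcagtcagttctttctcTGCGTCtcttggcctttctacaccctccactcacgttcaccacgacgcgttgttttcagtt
linc-105 (chrIII:10717589-10717689, plus strand): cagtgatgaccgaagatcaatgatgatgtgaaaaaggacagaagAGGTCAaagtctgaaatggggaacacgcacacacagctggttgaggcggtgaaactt
linc-146 (chrV:10175738-10175838, plus strand): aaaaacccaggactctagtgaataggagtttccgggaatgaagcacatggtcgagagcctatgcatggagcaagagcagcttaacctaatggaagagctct
Y41C4A.17 (chrIII:11641494-11641594, plus strand): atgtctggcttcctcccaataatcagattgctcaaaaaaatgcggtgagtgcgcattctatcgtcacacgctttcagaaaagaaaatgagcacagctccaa
linc-78 (chrX:2242944-2243044, plus strand): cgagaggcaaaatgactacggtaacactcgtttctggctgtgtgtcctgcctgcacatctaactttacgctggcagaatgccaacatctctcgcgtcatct

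The full AAAGGTCA element was in 0 of the 19 lincRNA summit windows (95% exact upper limit 17.6%) and in 8 of all 1662 optimal ones (0.481%). The core AGGTCA, which the full element contains, was in 1 of 19 (5.26%, at linc-105) and in 48 of 1662 (2.89%). GAGAGAGA was in 3 of 19 (15.8%) and in 161 of 1662 (9.69%). At linc-90 a run of alternating G and A covered 57 bp, whereas linc-81 had a single short match. TGCGTC, chosen after the sequences had been seen, was in 6 of 19 lincRNA windows (31.6%, 95% exact interval 12.6 to 56.6%) and in 275 of 1662 (16.5%). Besides linc-50 and linc-81, windows with it belonged to linc-35, linc-60, linc-92 and linc-118, all in protein-coding windows. Base composition was 45.7% ± 4.71 G and C at lincRNA summits (SD, n = 19 windows) and 44.7% ± 7.17 at all optimal summits (SD, n = 1662 windows).

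Among the 6 unshared genes, linc-90 (III, 352222 to 355402) had the highest signal. Its summit, at 352281 in an exon 59 bp downstream of the 5′ end, also lay in an intron of gei-4 on the opposite strand, 2413 bp into that gene. Its signal, the authors' value for a peak on a scale that is not described, was 91.9 in the pooled list and 86.6 in replicate 1 (rank 367), and replicate 2 had no summit within 100 bp. The nearest replicate 2 summit was 1318 bp away, at rank 12383, so this peak had no match in replicate 2.

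The peak of linc-81 (V, 19895684 to 19897795) was seen in both replicates. Its summit, at 19897708, lay in an exon 87 bp downstream of the 5′ end and 1759 bp upstream of the nearest protein-coding start, that of Y116F11B.14. Signals were 63.8 pooled, 42.8 in replicate 1 (rank 1480) and 27.0 in replicate 2 (rank 558). No other gene of any class had this summit in its window.

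linc-146 (V, 10176233 to 10179264) also had a peak in both replicates, at weaker signals. The summit, at 10175788, was intergenic, 445 bp upstream of linc-146 and 2035 bp upstream of egl-3, which encodes a convertase of neuropeptide precursors. Signals were 53.8 pooled, 32.3 in replicate 1 (rank 2524) and 17.0 in replicate 2 (rank 1639). The ncRNA gene C51E3.11 had the same summit in its window.

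The remaining unshared genes had a clear peak in replicate 1 and a weak one in replicate 2. At linc-50 (IV, 5582041 to 5582262) the summit lay 283 bp upstream of the lincRNA and 2139 bp upstream of fkh-7, a forkhead factor gene. Signals there were 62.0 pooled, 52.7 in replicate 1 (rank 1030) and 8.50 in replicate 2 (rank 11729), and a piRNA gene, 21ur-8837, shared the window. linc-105 (III, 10718341 to 10719485) had its summit 702 bp upstream, with signals of 59.5 pooled, 52.2 in replicate 1 (rank 1049) and 12.3 in replicate 2 (rank 3999). It is the gene with the AGGTCA core, close to the middle of the sequence above. For Y41C4A.17 (III, 11641642 to 11641903) the summit was 98 bp upstream of the lincRNA and 4704 bp upstream of tbx-33, a T-box factor gene. Signals were 53.5 pooled, 44.7 in replicate 1 (rank 1368) and 10.6 in replicate 2 (rank 6402), which put this peak among the lowest of the optimal set.

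In replicate 1, 5 of these 6 peaks were among its 1662 highest, and in replicate 2 only 2 were, those of linc-81 and linc-146. Taking the 1662 highest peaks of replicate 2 in place of the optimal set gave 3 unshared lincRNA genes, linc-81, linc-146 and linc-69, the last named after its value had been seen. The 1662 highest of replicate 1 gave 8. Among the 831 highest optimal peaks, linc-90 alone was left.

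Of the 13 summits shared with a protein-coding window, at 12 lincRNA genes, 11 had the protein-coding gene nearest the summit on the opposite strand. At these 11 its 5′ end was upstream of the lincRNA, so that both genes point away from each other. At 9 of the 13 the summit lay between these 5′ ends. Each window reaches 1000 bp upstream and only 200 bp downstream, and a shared summit must lie in both. For genes on opposite strands, the rule thus largely fixes this layout in advance. The protein-coding 5′ end was the nearer one for 8 summits and the lincRNA 5′ end for 5. Many lincRNA genes without an optimal summit also had the protein-coding gene nearest their 5′ end on the opposite strand, an unlike measure to the gene nearest a summit. Their share was not counted, so the layout is not read as particular to genes with a summit.

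**Figure D2:**
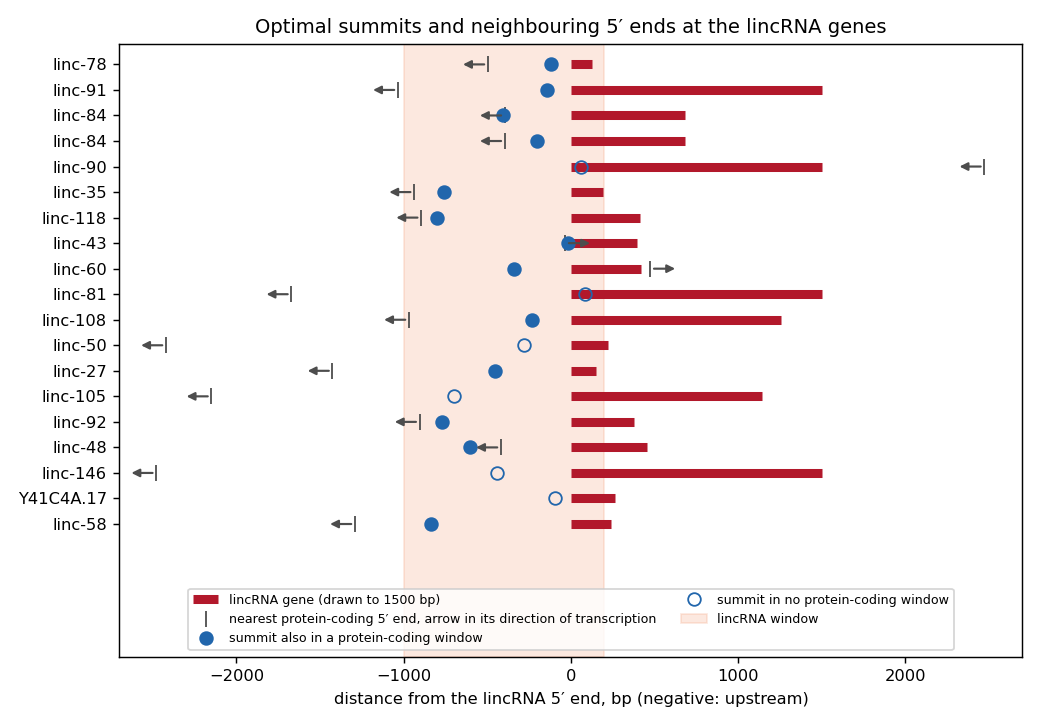
Position of the 19 optimal summits (circles) against the 5′ end of the lincRNA gene (x axis, distance in bp, upstream negative), 1 row per summit in order of signal. Bars are the lincRNA genes, ticks with arrows the nearest protein-coding 5′ ends and their direction, off the axis for Y41C4A.17 at 4802 bp. Open circles are the 6 summits in no protein-coding window, and 17 of the 19 summits lie upstream of the lincRNA 5′ end.

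The highest peak at a lincRNA gene was that of linc-78 (X, 2243115 to 2243239), at rank 53 of the optimal set. Signals were 265.4 pooled, 205.0 in replicate 1 (rank 52) and 64.7 in replicate 2 (rank 59). The summit lay 121 bp upstream of linc-78 and 376 bp upstream of rpl-11.2, a gene for a protein of the large ribosomal subunit on the other strand. The ncRNA gene AH9.7 started at the same distance as linc-78. The next highest was at linc-91 (chromosome I, 4699610 to 4702866), with signals of 224.8 pooled, 176.9 in replicate 1 (rank 74) and 48.2 in replicate 2 (rank 134). It lay 142 bp upstream of linc-91 and 893 bp upstream of chd-7, which encodes a chromatin remodelling helicase. For both genes the lincRNA 5′ end was the nearer one and the replicates ranked the peak alike.

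linc-84 (chromosome I, 8865945 to 8866624) had summits 407 and 203 bp upstream, both in the window of F55H12.7. The first lay in an exon of that gene, 11 bp inside it, with signals of 162.3 pooled and 122.1 in replicate 1 (rank 190). The second had 106.1 pooled, 69.9 in replicate 1 (rank 566) and 53.6 in replicate 2. Replicate 2 had 1 summit here, 66 bp from the second and 138 bp from the first, so only the second was matched within 100 bp.

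linc-35 (II, 6927637 to 6927825) and linc-118 (X, 15617415 to 15617830) had far-upstream summits close to a protein-coding start. The linc-35 summit was 757 bp upstream of the lincRNA and 181 bp upstream of flcn-1, the folliculin gene, with signals of 90.7 pooled, 62.6 in replicate 1 (rank 738) and 22.8 in replicate 2 (rank 807). At linc-118 the summit was 800 bp upstream and in an exon of ergi-3, 96 bp upstream of its nearest 5′ end, a gene for a protein of transport between the endoplasmic reticulum and the Golgi. Signals were 78.1 pooled, 56.8 in replicate 1 (rank 911) and 21.7 in replicate 2 (rank 908). Ranks in the replicates were again close for both.

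At linc-43 (X, 13141635 to 13142031) and linc-60 (IV, 14958931 to 14959349) the protein-coding gene nearest the summit points the same way as the lincRNA. By distance from the lincRNA 5′ end, so did the nearest protein-coding genes of linc-35 and linc-92. These were F22D3.4 and nhr-142, whose windows also held the summits. The 5′ ends of linc-43 and F09A5.3 were 34 bp apart, and the summit lay between them, 20 bp upstream of the lincRNA, with signals of 68.8 pooled, 53.9 in replicate 1 (rank 993) and 16.5 in replicate 2 (rank 1765). At linc-60 the summit was 340 bp upstream of the lincRNA and 815 bp upstream of Y41E3.1, with 68.3 pooled, 43.2 in replicate 1 (rank 1450) and 24.5 in replicate 2 (rank 702).

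At lower signals, linc-108 and linc-27 lay beside a metabolic gene and a gene of the cell cycle. The linc-108 summit (V, 15566660) lay 235 bp upstream of the lincRNA and 734 bp upstream of acs-2, an acyl-CoA synthetase gene of fat oxidation, with 63.3 pooled and 58.3 in replicate 1 (rank 867). That of linc-27 (II, 6370334) lay 457 bp upstream and 969 bp from lin-23, an F-box gene that limits cell division, with 60.3 pooled, 50.97 in replicate 1 (rank 1084) and 11.5 in replicate 2 (rank 4980). The lincRNA was the nearer gene at these summits.

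At linc-92, linc-48 and linc-58 the protein-coding gene was the nearer one. The linc-92 summit (V, 5791095) lay 770 bp upstream of the lincRNA, 135 bp upstream of F44E7.9 and in the window of nhr-142, another nuclear receptor gene, with 58.7 pooled, 47.6 in replicate 1 (rank 1223) and 13.5 in replicate 2 (rank 3053). That of linc-48 (X, 17421284) lay 603 bp upstream of the lincRNA and in an intron of osm-11, which encodes a secreted protein of Notch signalling, with 56.7 pooled and 42.9 in replicate 1 (rank 1471). Last came linc-58 (chromosome I, summit 7952050), 835 bp upstream of the lincRNA, 457 bp upstream of jph-1, the junctophilin gene of muscle calcium signalling, and in an exon of the ncRNA gene T22C1.15. Its signals were 53.1 pooled, 37.6 in replicate 1 (rank 1878) and 18.0 in replicate 2 (rank 1392), at rank 1633 of the optimal set.

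**Figure D3:**
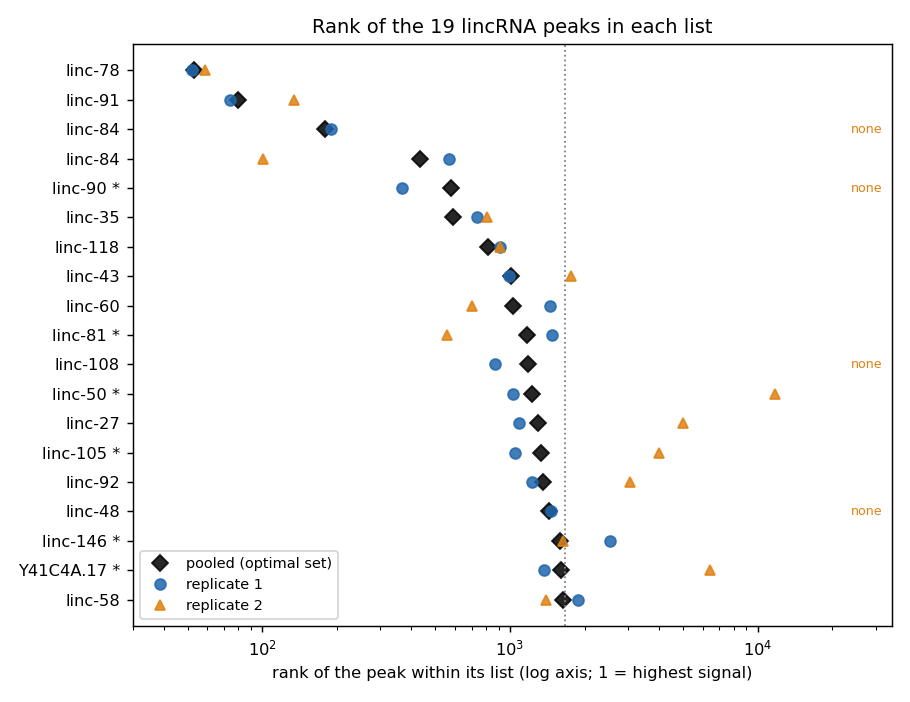
Rank of each of the 19 lincRNA peaks within its list (x axis, log scale, 1 is the highest signal) in the optimal set, whose ranks equal those of the pooled list, and in each replicate, matched by summits within 100 bp. Asterisks mark the 6 peaks in no protein-coding window, "none" a peak with no match in replicate 2, and the dotted line rank 1662. Replicate 1 ranks follow the pooled ranks, from 52 to 2524, while replicate 2 ranks reach 11729.

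The peaks at lincRNA genes had a lower median signal than the optimal set. Their median signal was 63.8 (range 53.1 to 265.4), against 77.2 over all 1662 optimal peaks. Those shared with protein-coding windows had a median of 68.8 against 81.1 for all optimal peaks in such windows, and the 6 unshared ones 60.7 against 72.7 for all 734 optimal peaks outside them. The 831 highest peaks of the optimal set held 7 of the 19 (36.8%, 95% exact interval 16.3 to 61.6%). Every one of the 19 had a replicate 1 summit within 100 bp, and 17 were among the 1662 highest of replicate 1 (89.5%, against 85.4% of all optimal peaks). In replicate 2, 15 had such a summit (78.9%, against 85.8%) and 9 were among its 1662 highest (47.4%, 95% exact interval 24.4 to 71.1%, against 60.0% of all optimal peaks). At linc-48 and linc-108 the nearest replicate 2 summit lay 121 and 129 bp away. For the first linc-84 summit it lay 138 bp away and was the one matched to the second linc-84 summit. These differences were not tested, and the intervals at lincRNA genes hold the values over all optimal peaks.

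Summits were counted by whether the lincRNA window met a protein-coding one. Where the lincRNA window met a protein-coding window, 13 of 89 genes had an optimal summit (14.6%, 95% exact interval 8.01 to 23.7%), and where it met none, 5 of 105 had one (4.76%, 95% exact interval 1.56 to 10.8%). These intervals overlap, and the difference was not tested. The median distance between the lincRNA 5′ end and the nearest protein-coding 5′ end was 1002 bp for the 18 genes with a summit and 1913 bp for the other 176. Median gene lengths were 417.5 bp and 797.5 bp. Per megabase, lincRNA windows inside protein-coding windows held 192 optimal summits (13 summits, 95% exact Poisson interval 102 to 328). Sequence in the windows of at least 2 protein-coding genes held 103 per megabase, and protein-coding windows as a whole 35.3. The part of lincRNA windows outside protein-coding windows held 36.1 (6 summits, 95% exact Poisson interval 13.2 to 78.5). That was close to the 35.3 of protein-coding windows and above the 9.87 in sequence outside both kinds of window. Much of that sequence lies in protein-coding genes beyond their windows, where the density was 5.81. Intergenic sequence alone was not counted, so no excess over it is read from these values.

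By chromosome, 4.65% (II) to 13.04% (I) of lincRNA genes had a summit, with wide intervals. On X, 4 of 38 had one (10.5%, 95% exact interval 2.94 to 24.8%), and on the autosomes 14 of 156 (8.97%, 95% exact interval 4.99 to 14.6%). All 4 X-linked summits were in protein-coding windows, as were 13 of all 19. Unshared genes were 0 of 38 on X and 6 of 156 on autosomes, 3 of them on chromosome III. At the 3.09% share over all lincRNA genes, 38 genes would often hold none, so no contrast is read from this. For protein-coding genes the shares were 6.70% on X and 5.82% on autosomes.

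Optimal summits also lay in lincRNA genes beyond the window. There were 12 pairs of such a gene and a summit, at 11 genes and 11 summits, 10 in exons of the lincRNA and 2 in introns, and 8 of these genes had no summit in their window. The 11 genes were 5.67% of the 194 (95% exact interval 2.86 to 9.92%), against 0.616% of all nuclear genes and 1.28% of protein-coding genes by the same rule. These genes were singled out after their values were seen, gene lengths differ between classes, and the difference was not tested. Only the summit in linc-90, at gei-4, was in a protein-coding window. Those in linc-96, linc-153, linc-110 and linc-133 lay in windows of other genes that are not protein-coding. These were F08F3.12, T27F2.6, T09A5.16, T09A5.21 and T09A5.18. The highest of the 11 summits was in linc-128 (V, 1150906 to 1153207), 611 bp from its 5′ end. Its signals were 216.8 pooled, 164.8 in replicate 1 (rank 97) and 54.5 in replicate 2 (rank 96). This peak stood higher than those of 16 of the 18 genes with a summit in the window. linc-96 (V, 5425185 to 5427031; signals 104.4, 70.1 and 32.3) and linc-153 (V, 11641024 to 11643916; signals 93.8, 60.7 and 24.5) followed among the genes without one, each value in the order pooled, replicate 1 and replicate 2. linc-143 had a summit 1308 bp inside it, which also lay in an intron of the insulin receptor gene daf-2, at 62.5 pooled, 43.3 in replicate 1 (rank 1442) and 16.8 in replicate 2 (rank 1687). linc-110 and linc-133, which overlap on opposite strands, shared a summit at 61.0 pooled. Per megabase, lincRNA genes outside all lincRNA windows held 57.6 optimal summits (11 summits, 95% exact Poisson interval 28.7 to 103), against 5.81 in protein-coding genes outside protein-coding windows and 16.6 in the nuclear genome.

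The relaxed lists, of 30000 peaks each and with background included, reached further lincRNA genes. A pooled relaxed summit lay in the window of 85 of 194 (43.8%, 95% exact interval 36.7 to 51.1%), against 34.9% of all nuclear genes and 41.3% of protein-coding genes. Each replicate's own list had a summit at 81 lincRNA genes (41.8%), against 40.1% of protein-coding genes in replicate 1 and 41.2% in replicate 2. Summits from both lay at 53 lincRNA genes (27.3%, 95% exact interval 21.2 to 34.2%), against 18.9% of all nuclear genes and 25% of protein-coding genes. The lincRNA intervals hold the protein-coding shares. At 35 of the 53 the replicates' summits lay within 100 bp of each other, a count not made for other genes. At a q-value limit of 0.01, peaks were at 24 lincRNA genes in the pooled list (12.4%, against 8.92% of protein-coding genes), at 26 in replicate 1 (13.4%, against 9.22%) and at 17 in replicate 2 (8.76%, against 8.02%). No relaxed summit of any list was found at 82 lincRNA genes (42.3%), and other genes were not counted by this rule.

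The fullest bins of relaxed summits were those at the lincRNA start. In the pooled list 25 lay in the 200 bp upstream of the 194 gene starts (12.9 per 100 genes) and 21 in the 200 bp downstream (10.8 per 100 genes). Other bins of 200 bp within 2000 bp held 6 to 19 summits (3.09 to 9.79 per 100 genes). Protein-coding genes had 11.0 and 6.58 per 100 genes in these 2 bins, and 9.20 in the bin before them. Optimal summits at lincRNA genes were few in every bin, at most 5, and the highest bin was 600 to 800 bp upstream.

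**Figure D4:**
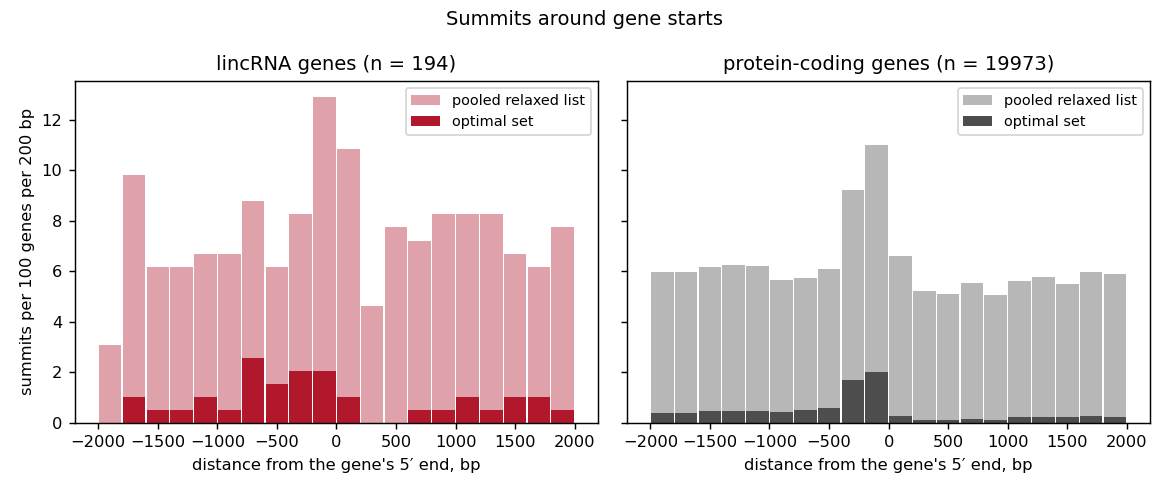
Summits per 100 genes (y axis) in bins of 200 bp by distance from the gene's 5′ end (x axis, upstream negative), for lincRNA genes on the left and protein-coding genes on the right. Pale bars are the pooled relaxed list and dark bars the optimal set, drawn from 0. Both classes have their highest pale bar just upstream of the start, at 12.9 for lincRNA genes and 11.0 for protein-coding genes.

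Among the 67 lincRNA genes with a pooled relaxed but no optimal summit, linc-131 came closest, at signal 52.5 and 3 ranks below the last optimal peak. It was followed by linc-129 (49.8), linc-1 (47.2), linc-126 (45.8), M04F3.7 (41.4), Y71F9AM.9 (39.8), linc-7 (38.6), linc-143 (36.5), linc-73 (34.7) and linc-33 (34.3). All 10 had a replicate 1 summit within 100 bp of the pooled one, and 3 had a replicate 2 summit there, Y71F9AM.9, linc-7 and linc-73. These counts were not made over other pooled relaxed peaks, so they are not read as particular to these genes. For linc-73, which lies near the kinesin gene unc-104, replicate 2 gave the higher rank, with signals of 14.6 in replicate 2 (rank 2441) and 18.7 in replicate 1 (rank 9083). In 7 of the 10 the summit was outside protein-coding windows. Of all 104 pooled relaxed summits in lincRNA windows, 41 (39.4%) lay inside them, so most lay outside there as well.

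A short list of named non-coding RNAs held 7 lincRNA genes, of which 0 had an optimal summit. At the 9.28% share of all lincRNA genes, a list of this size would often hold none, so the count says nothing about these genes. linc-1, linc-7 and linc-73 are among the genes just described. linc-22 had a pooled summit at signal 25.7, 86 bp from its start, matched in replicate 1 (rank 8801) and not in replicate 2. lep-5, whose RNA acts in the timing of larval development, had a relaxed summit in replicate 2 alone (rank 13266), and the nearest optimal summit was 11695 bp away. At linc-3 and linc-4 no list had a summit in the window.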

How the data were processed

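The data were peak lists from 2 biological replicates of 1 group. Per the deposited file lists, the authors called relaxed peaks, background included, from each replicate's alignment with 1 further file that is not described, and again from both replicates pooled. The optimal set was derived from these by the irreproducible discovery rate. No source used here names the aligner, caller, versions or threshold. Each deposited list gives 1 signal value per peak, whose scaling is unknown. It was used only within a list, apart from setting each list's values side by side. Summit positions and q-values, as −log10, were taken from the deposited lists. Read depth is unknown, and intervals (Clopper-Pearson for shares, exact Poisson for densities, 95%) cover counting error only.

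Lists on ce11, the same assembly as WBcel235, were joined to Ensembl release 115 gene models, and those on ce10 were not used. Every annotated 5′ end was used, and a summit could belong to several genes. Summits within 100 bp were matched between lists. The window rule was tested on summits planted at its edges. No test was made, since there is 1 group and no control sample. Named genes were all lincRNA genes with an optimal summit, the 10 highest without one and a short list of lincRNA names. The members and lists were chosen with earlier results of these data known. Genes with a summit inside the gene and the TGCGTC letters were chosen after values were seen. Python 3.11.15, numpy 2.4.6, scipy 1.17.1 and matplotlib 3.10.9 were used.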

Additional observations from a re-analysis of the deposited data

How the results depend on the processing

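The 18 lincRNA genes with an optimal summit became 6 among the 831 highest optimal peaks (3.09%, against 3.43% of protein-coding genes) and 11 when each summit went only to the nearest 5′ end of any gene (5.67%, against 3.77%). With 1 replicate left out they numbered 14 to 20. Of the 18, 10 remained without replicate 1 and 16 without replicate 2. The 6 unshared genes became 1 among the 831 highest optimal peaks, and 3 to 8 with 1 replicate left out. The share of lincRNA summits outside protein-coding windows was 31.6%, and 69.2% (9 of 13) with windows from 500 bp upstream. Requiring a q-value of 0.01 or less lowered the genes with a pooled relaxed summit to 24 of 85 and those with both replicates to 11 of 53. Summits of both replicates within 50 bp left 20 and within 100 bp 35. Other windows, overlap in place of summits, 200 bp matching and other sequence windows stayed within 1.5 times or within the interval. No paired analysis was possible because there is 1 group. Depth is unknown, and few members limit every share.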
